A study of Rattus norvegicus with 8 samples.

Results

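S100 genes encode a family of small calcium-binding proteins, and 9 of them are described here: S100a4, S100a6, S100a8, S100a9, S100a10, S100a11, S100a13, S100a14 and S100a16. They were chosen by gene symbol alone. Of these, 8 matched a row of the deposited table of 30240 rows, and S100a13 was not analysed here. All 8 passed the filter on low values, 1 CPM (reads scaled to the total of the library) or more in at least 4 libraries, which left 6849 genes for testing.

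The RNA came from SF2, a cell line of rat dental epithelium. Its labelled origin is the cervical loop, the growing end of the incisor that keeps supplying enamel-forming cells. Cells labelled AmeloD-overexpressing and cells labelled Control each carried either pCMV6.ODAM or pCMV6, and each of these was labelled TGF or N, so that the 8 libraries are AmeloD pCMV6.ODAM TGF, AmeloD pCMV6 TGF, AmeloD pCMV6.ODAM N, AmeloD pCMV6 N, Control pCMV6.ODAM TGF, Control pCMV6 TGF, Control pCMV6.ODAM N and Control pCMV6 N. AmeloD is the product of Ascl5, a helix-loop-helix transcription factor, and ODAM is an ameloblast-associated protein. What TGF and N stand for is not spelled out in the labels, and neither are the promoter of the AmeloD construct, the number of clones or the length of any treatment.

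Each combination had 1 library, so no combination was replicated. A comparison set the 4 libraries of one label against the 4 of the other, and the spread it was judged by includes any interaction between the labels. Where the 4 values of a label all lie above or below the other 4, this is a description only. The share of all genes that separate in this way is not given here. The libraries held 10568146 to 13668736 reads with AmeloD and 14766931 to 17775226 reads with Control, and 1662973 to 2854134 of them lay in the table. Ascl5 had 0 reads in all 8 libraries, so these values give no check of the AmeloD label. Odam had 3, 0, 1 and 0 reads in the AmeloD libraries and 17, 0, 10 and 1 in the Control libraries. Values of 4 libraries are listed throughout in the order pCMV6.ODAM TGF, pCMV6 TGF, pCMV6.ODAM N and pCMV6 N.

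S100 proteins carry EF-hand loops. In most of them calcium opens a surface that binds other proteins, among them annexins, myosin and the cytoskeleton, and some are released and act on receptors such as RAGE and TLR4. Their genes lie side by side in mammals, near the genes of the epidermal differentiation complex that encode cornified envelope proteins. Several family members are abundant in stratified epithelia, and calcium handling is central to the enamel organ.

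The 8 genes lay on chromosome 2 of the mRatBN7.2 build. The group S100a14, S100a16, S100a4, S100a6, S100a8 and S100a9 spanned 185 kb, from 176008395 to 176193230. S100a11 (179191715 to 179197044) and S100a10 (179220887 to 179229661) lay 3 Mb further along, with 23.8 kb between them. None of the 8 overlapped another row of the table. RefSeq lists 7 near copies of S100a11 elsewhere in the rat genome, 5 pseudogenes and 2 genes named as S100a11-like, and 1 pseudogene of S100a10. The sources used here do not say how reads shared by several copies were counted, so the levels of S100a11 and S100a10 are uncertain to that extent.

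Promoter windows were searched because AmeloD belongs to a class of factors that bind E-boxes, and a pair of them is shown. S100a14 was picked for its motif, after the search, and S100a11 because it took most of the S100 reads. Neither gene passed the genotype test (limma, adjusted p = 0.269 and 0.186). Each window runs from 250 bases before to 50 bases after the annotated start, from RefSeq on GRCr8, and capitals mark every CANNTG, the general E-box.
S100a14, chr2:178305726-178306025, plus strand: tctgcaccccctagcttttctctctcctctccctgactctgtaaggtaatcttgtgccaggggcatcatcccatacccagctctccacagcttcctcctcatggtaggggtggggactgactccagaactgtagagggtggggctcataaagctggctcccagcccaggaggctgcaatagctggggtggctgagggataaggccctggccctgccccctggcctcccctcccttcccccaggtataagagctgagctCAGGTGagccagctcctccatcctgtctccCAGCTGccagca
S100a11, chr2:181874882-181875181, plus strand: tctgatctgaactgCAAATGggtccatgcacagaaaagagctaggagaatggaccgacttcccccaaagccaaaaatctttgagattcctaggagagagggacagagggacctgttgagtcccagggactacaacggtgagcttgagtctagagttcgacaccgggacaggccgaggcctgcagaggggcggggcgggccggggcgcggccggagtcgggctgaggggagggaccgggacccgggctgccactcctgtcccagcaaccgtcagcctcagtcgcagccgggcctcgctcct
S100a14 held the only CAGCTG among the 7 windows found for these genes, at 39 bases after the start, and also a CAGGTG at 9 bases after it. S100a11 held 1 E-box, CAAATG, 236 bases before the start.

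The CAGCTG motif occurred in 15.1% of all 27457 rat promoter windows of that length. CANNTG, searched on both strands and including every CAGCTG, occurred in 71.6% of them and in 4 of the 7 windows here, those of S100a14, S100a16, S100a9 and S100a11. The AP-1 motif TGANTCA, present in 7.33% of all windows, and the SMAD palindrome GTCTAGAC, present in 0.215%, had no match in the 7. These matches are letters in a window, and no binding was measured. The 7 windows include that of S100a13, whose expression was not analysed, while S100a8 and S100a10 had no window in the table used.

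S100a11 accounted for most of the S100 reads. It held 2.06% to 3.94% of all reads in the table per library, and the 8 genes together held 2.82% to 4.63%. Its share of the 8 genes' reads was 72.9% to 85.2%. S100a8 and S100a9 were at the other end, with 198 and 194 reads over all 8 libraries. Levels are read here between libraries and not between genes.

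**Figure D1:**
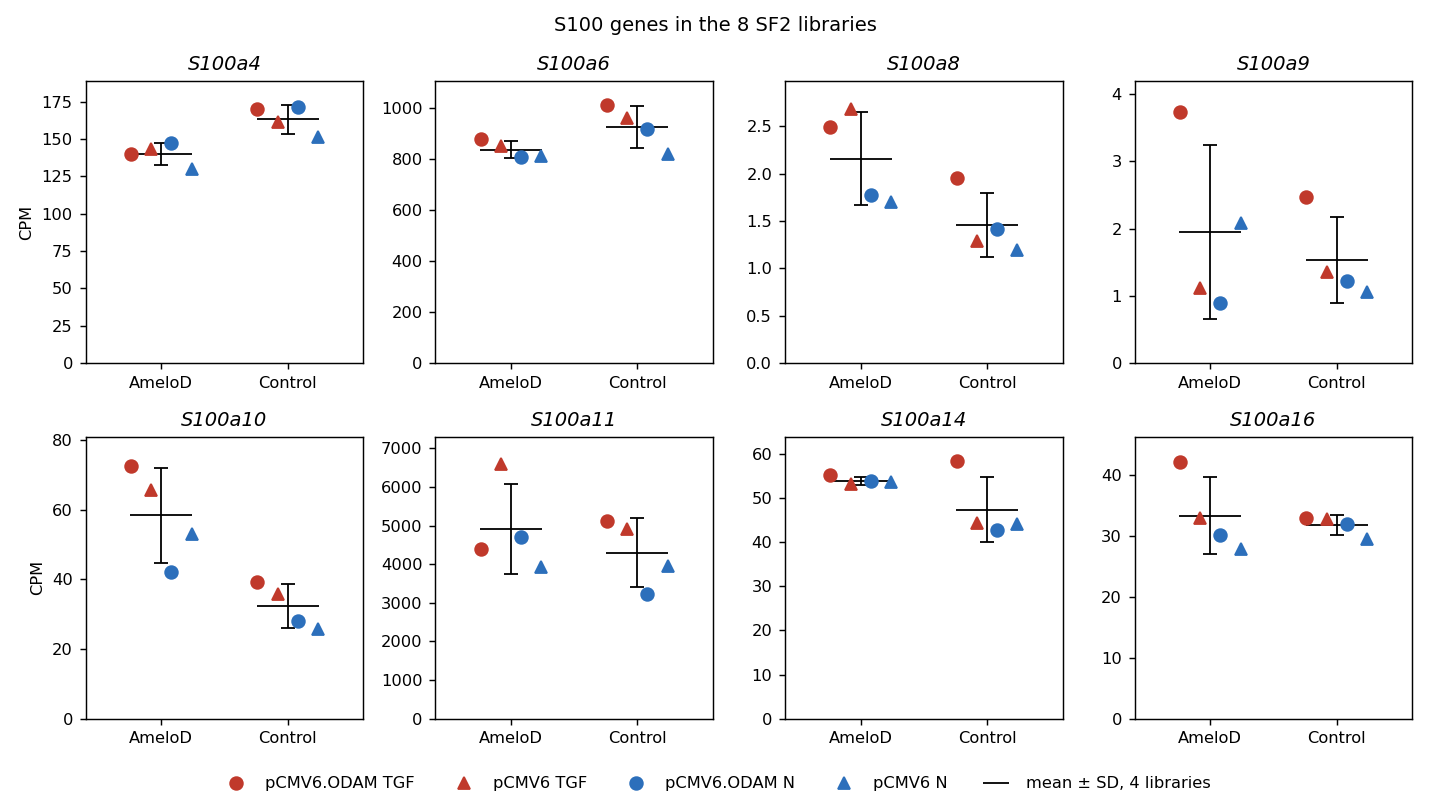
CPM of the 8 S100 genes in each library, a panel per gene with its own axis from 0, AmeloD left and Control right. Colour gives TGF or N, shape gives the plasmid, and the black bars are the mean ± SD of 4 libraries. The S100a10 points do not overlap between the genotypes (42.0 to 72.6 against 25.8 to 39.2 CPM), and neither do those of S100a4 (129.7 to 147 against 151 to 171 CPM). The share of all genes without overlap is not given here.

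The first comparison asked which S100 genes differ in the cells labelled AmeloD-overexpressing. S100a10 rose in AmeloD cells by 1.77-fold on the CPM + 1 scale, and it was the only one of the 8 past the limma test. S100a4 and S100a6 were lower in all 4 matched pairs without passing it. Over all genes tested, 9.07% were called higher and 4.75% lower in AmeloD, and of the 8 S100 genes 1 was called higher and 0 lower. At an unadjusted p under 0.05 there were 2 of the 8, S100a10 and S100a4, and 1849 of the 6849 genes, a similar share. Their median log2 difference was 0.17, with 6 of 8 above 0, against a median of 0.05 and 57% above 0 over all 6849 genes. One of the 6, S100a16, was below 0 under 4 of the 5 other scalings and count models.

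S100a10, also called p11, is the S100 protein whose loops no longer bind calcium and which holds annexin A2 in a complex at the membrane. It had 72.6, 65.7, 42.0 and 53.1 CPM in the AmeloD libraries, against 39.2, 35.9, 28.0 and 25.8 CPM in the Control libraries. The lowest AmeloD library was above the highest Control library, so the genotypes did not overlap. The means were 58.3 ± 13.6 CPM with AmeloD and 32.3 ± 6.36 CPM with Control (SD, n = 4 libraries each). The log2 difference was 0.82 ± 0.11 (SE, limma, adjusted p = 9.54e-06), with a 95% interval of 0.59 to 1.06.

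The rise of S100a10 was seen in every matched pair of libraries. Between libraries that differ in genotype alone, the log2 difference was 1.01 in pCMV6 N, 0.85 in pCMV6 TGF, 0.57 in pCMV6.ODAM N and 0.87 in pCMV6.ODAM TGF. Summed over libraries the reads were 2830 with AmeloD and 2070 with Control, a ratio of 1.8 per library read with an exact 95% interval of 1.7 to 1.91. That interval covers counting error only. In bulk samples, more cells that express a gene and more RNA per cell cannot be told apart.

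S100a4, also called metastasin, binds nonmuscle myosin and is used as a marker of motile and mesenchymal cells. It had 140.2, 143, 147 and 129.7 CPM in the AmeloD libraries, against 170.2, 161, 171 and 151 CPM in the Control libraries. All 4 AmeloD libraries were below all 4 Control libraries. The log2 difference was -0.22 ± 0.09 (SE, limma, adjusted p = 0.0986), which did not pass. It passed under 4 alternatives: a 10 CPM filter (-0.22, adjusted p = 0.0498), TMM scaling (-0.29, adjusted p = 0.0463), libraries set to the same median (-0.29, adjusted p = 0.0377) and DESeq2 (-0.30, adjusted p = 0.0398).

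Of the listed mesenchyme markers 2 were tested. Col3a1, a fibrillar collagen gene, fell in AmeloD by 1.11 (SE 0.13, adjusted p = 7.91e-07), and Vim, which encodes vimentin, did not pass (-0.06 ± 0.20, SE, limma, adjusted p = 0.886). The 10 listed fibroblast and mesenchyme genes summed to 17.8 to 27.5 CPM with AmeloD and 34.4 to 64.8 CPM with Control. Nearly all of this was Col3a1, at 17.3 to 26.4 CPM with AmeloD and 33.2 to 63.0 CPM with Control, and Col1a2, Pdgfrb, Thy1, Dcn, Lum and Postn had 0 reads in all 8 libraries. The part of such cells in the S100a4 difference was not tested.

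S100a6, or calcyclin, binds annexins and the ubiquitin ligase partner CacyBP. It had 878, 851, 811 and 812 CPM in the AmeloD libraries, against 1015, 961, 919 and 819.6 CPM in the Control libraries. The AmeloD library was the lower of each matched pair, but the ranges overlapped. The log2 difference was -0.14 ± 0.07 (SE, limma, adjusted p = 0.198).

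S100a11, or calgizzarin, binds annexin A1 and takes part in growth arrest of human keratinocytes. It had 4403, 6597, 4714 and 3925 CPM in the AmeloD libraries, against 5128, 4913, 3219.7 and 3949 CPM in the Control libraries. The genotypes overlapped, and AmeloD was higher in 2 of 4 matched pairs. The log2 difference was 0.19 ± 0.09 (SE, limma, adjusted p = 0.186), which moved in both directions when a library was left out. It was 0.32 (adjusted p = 0.00587) without AmeloD pCMV6.ODAM TGF, 0.065 (adjusted p = 0.667) without AmeloD pCMV6.ODAM N and 0.096 (adjusted p = 0.599) without AmeloD pCMV6 TGF.

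S100a14 and S100a16 are epithelial members of the family, and both lie at the same end of the cluster. S100a14 was between 53.2 and 55.2 CPM in all 4 AmeloD libraries, against 58.3, 44.4, 42.8 and 44.2 CPM in the Control libraries. Its log2 difference was 0.19 ± 0.11 (SE, limma, adjusted p = 0.269). S100a16 had 42.1, 33.0, 30.1 and 27.8 CPM with AmeloD and 33.0, 32.8, 32.0 and 29.4 CPM with Control, a log2 difference of 0.05 ± 0.12 (SE, limma, adjusted p = 0.847). Neither gene separated the genotypes.

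S100a8 and S100a9 form calprotectin, an antimicrobial pair known from neutrophils and from stressed epithelium. S100a8 had 34, 29, 24 and 18 reads (2.49, 2.68, 1.78 and 1.7 CPM) in the AmeloD libraries, against 30, 23, 21 and 19 reads (1.95, 1.29, 1.42 and 1.19 CPM) in the Control libraries. Each matched pair had the higher CPM with AmeloD, although the ranges overlapped, and the log2 difference was 0.36 ± 0.18 (SE, limma, adjusted p = 0.206). S100a9 had 51, 12, 12 and 22 reads (3.73, 1.11, 0.89 and 2.08 CPM) with AmeloD and 38, 24, 18 and 17 reads (2.47, 1.35, 1.22 and 1.06 CPM) with Control.

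The S100a9 values of the genotypes overlapped, and the log2 difference was 0.16 ± 0.22 (SE, limma, adjusted p = 0.713), with a 95% interval of -0.30 to 0.62. At 12 to 51 reads per library, a difference of any size inside that interval remains possible. Both genes are also defining genes of neutrophils, and most other leukocyte markers were at or near 0. Csf3r, Camp, Lyz2 and Tyrobp had 0 reads in all libraries, and Ptprc, Itgam and Mpo had 1 read each over the 8. Cxcr2, a neutrophil chemokine receptor, had 2 to 4 reads in the AmeloD libraries and 1 to 8 in the Control libraries, and Fcer1g had 0 to 2 with AmeloD and 0 to 4 with Control. The part of such cells in the S100a8 and S100a9 values was not tested. The 15 leukocyte markers summed to 3.14 to 4.16 CPM with AmeloD and 0.939 to 2.34 CPM with Control. Most of these reads were of Cd68, a lysosomal gene and the only one tested, which rose by 0.95 ± 0.18 (SE, limma, adjusted p = 0.000792).

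**Figure D2:**
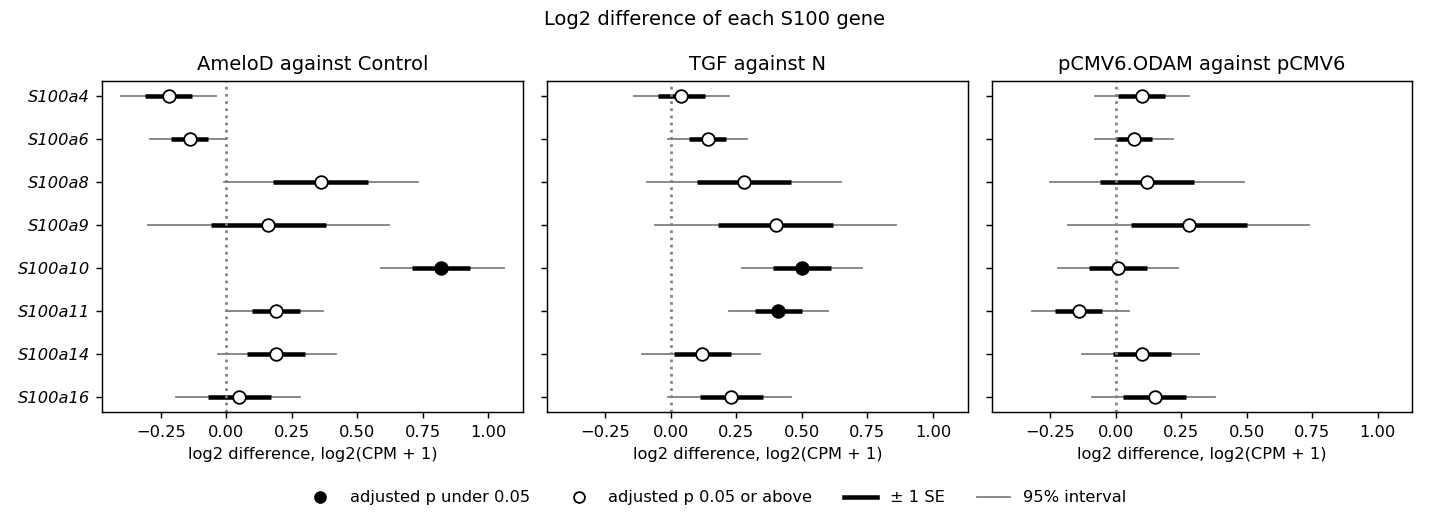
Log2 difference of each S100 gene on log2(CPM + 1), in a panel per comparison, with ± 1 SE (thick) and the 95% interval (thin); filled points have a limma adjusted p under 0.05. Only S100a10 is filled for AmeloD against Control (0.82), S100a10 (0.50) and S100a11 (0.41) are filled for TGF against N, and none is filled for the plasmids.

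The second comparison set the TGF libraries against the N libraries. S100a10 and S100a11 rose in TGF, by 1.42-fold and 1.33-fold on the CPM + 1 scale, and they are the pair of neighbours at the far end of the cluster. Over all genes 1.53% were called higher and 0.277% lower in TGF by limma, and of the 8 S100 genes 2 were called higher and 0 lower. All 8 differences were above 0, with a median of 0.25, against 58.2% above 0 and a median of 0.04 over all 6849 genes, but S100a4 (0.04) was below 0 under each of the 5 other scalings and count models. These 2 of the 8, and 816 of the 6849 genes, had an unadjusted p under 0.05.

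S100a10 averaged 53.4 ± 18.5 CPM in TGF and 37.2 ± 12.8 CPM in N (SD, n = 4 libraries each). The ranges, 35.9 to 72.6 against 25.8 to 53.1 CPM, overlapped across genotypes, but TGF was higher in each of the 4 matched pairs. The log2 differences of the pairs were 0.78 in AmeloD pCMV6.ODAM, 0.30 in AmeloD pCMV6, 0.47 in Control pCMV6.ODAM and 0.46 in Control pCMV6. The fitted difference was 0.50 ± 0.11 (SE, limma, adjusted p = 0.0147).

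That call was lost when any of 4 libraries was left out. The adjusted p was then 0.147 without AmeloD pCMV6.ODAM N, 0.0650 without AmeloD pCMV6.ODAM TGF, 0.0595 without Control pCMV6 N and 0.0517 without Control pCMV6.ODAM TGF. It was also lost without a filter on low values (adjusted p = 0.0529) and with CPM rescaled to the reads counted in genes (0.44, adjusted p = 0.0517). The difference kept its sign in each of these fits. Col3a1 also rose in TGF (0.49 ± 0.13, SE, adjusted p = 0.0401, held under 1 of the 5 other scalings and count models), and the mesenchyme markers summed to 20.9 to 64.8 CPM in TGF and 17.8 to 38.7 CPM in N; their part in the S100 differences was not tested.

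S100a11 averaged 5260.2 ± 942 CPM in TGF and 3952 ± 610.2 CPM in N (SD, n = 4 libraries each). TGF was higher in 3 of 4 matched pairs, by 0.75 in AmeloD pCMV6, 0.67 in Control pCMV6.ODAM and 0.32 in Control pCMV6, and lower in AmeloD pCMV6.ODAM, where the log2 difference was -0.10. The fitted difference was 0.41 ± 0.09 (SE, limma, adjusted p = 0.0137). The reads behind it were 297827 in TGF and 215679 in N.

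The S100a11 call depended on the scaling. Under TMM it was 0.35 (adjusted p = 0.170), under a common median 0.36 (adjusted p = 0.135), by edgeR 0.35 (adjusted p = 0.134), by DESeq2 0.35 (adjusted p = 0.201) and with CPM rescaled to the reads counted in genes 0.34 (adjusted p = 0.0569). It was also lost without a filter (adjusted p = 0.179), with a 10 CPM filter (adjusted p = 0.0643), and without any of 4 libraries: AmeloD pCMV6 N (adjusted p = 0.0837), AmeloD pCMV6 TGF (0.0967), Control pCMV6.ODAM N (0.110) and Control pCMV6.ODAM TGF (0.149).

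The other 6 genes did not pass for TGF. S100a16 was between 32.8 and 42.1 CPM in TGF and between 27.8 and 32.0 CPM in N, so its 4 TGF libraries were all above its 4 N libraries. Its log2 difference was 0.23 ± 0.12 (SE, limma, adjusted p = 0.450). S100a6 was higher in TGF in 4 of 4 matched pairs, with a difference of 0.14 ± 0.07 (adjusted p = 0.455), and so was S100a8, with 0.28 ± 0.18 (adjusted p = 0.596).

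S100a9 had 125 reads in TGF and 69 in N, and its log2 difference of 0.40 ± 0.22 did not pass (SE, limma, adjusted p = 0.513). Its AmeloD pCMV6.ODAM pair differed by 1.32 and its AmeloD pCMV6 pair by -0.55, so the 2 pairs went opposite ways. S100a14 and S100a4 had differences of 0.12 ± 0.11 and 0.04 ± 0.09 (SE, limma, adjusted p = 0.754 and 0.925).

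The third comparison set pCMV6.ODAM against pCMV6, and none of the 8 S100 genes passed it. Of all genes, 0% were called by limma, 454 had an unadjusted p under 0.05, and edgeR called 0 and DESeq2 1. Among the 8, none had an unadjusted p under 0.05, and edgeR and DESeq2 called 0. The fitted differences ran from -0.14 ± 0.09 for S100a11 (adjusted p = 0.808) to 0.28 ± 0.22 for S100a9 (adjusted p = 0.862), with a median of 0.10 against 0.03 over all genes. For S100a10 the difference was 0.01 ± 0.11, with a 95% interval of -0.22 to 0.24, and its sign turned under each of the 5 other scalings and count models.

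Whether the effects of the labels on the S100 genes depend on each other was asked by adding 1 interaction term at a time. None of the 8 passed in any of the 3 tests, by limma, edgeR or DESeq2. Over all genes limma called 0.0146% for genotype by TGF, 0% for genotype by plasmid and 0% for plasmid by TGF. At an unadjusted p under 0.05 there were 282, 308 and 504 of the 6849 genes, and 0, 0 and 1 of the 8. For S100a10 the TGF difference was larger with AmeloD by 0.07 ± 0.24 (95% interval -0.42 to 0.56), and for S100a11 it was smaller, at -0.17 ± 0.18 (-0.53 to 0.20). Interactions of any size inside these intervals remain possible with 8 libraries, so their absence is not shown.

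The 1 gene was S100a9. Its difference of differences between plasmid and TGF was 1.16 ± 0.38 on the log2 scale, with an unadjusted p of 0.00629 by limma and an adjusted p of 0.578. The highest S100a9 values were those of the pCMV6.ODAM TGF libraries in both genotypes, 3.73 CPM with AmeloD and 2.47 CPM with Control, against 0.89 to 2.08 CPM in the other 6 libraries. The median of this interaction over all genes was 0.16 as deposited and 0.00 under TMM, and the S100a9 value was between 0.86 and 1.61 over the processing alternatives other than leaving out a library. S100a7a, whose row lies 2 genes before S100a9, had a difference of differences of 1.23 ± 0.36 (SE, limma, unadjusted p = 0.00261, adjusted p = 0.578). S100a8, which lies between S100a7a and S100a9, had 0.05 ± 0.36 (SE, limma, unadjusted p = 0.892). S100a1, an S100 gene tested outside the chosen group, had -0.42 ± 0.38 (SE, limma, unadjusted p = 0.277).

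**Figure D3:**
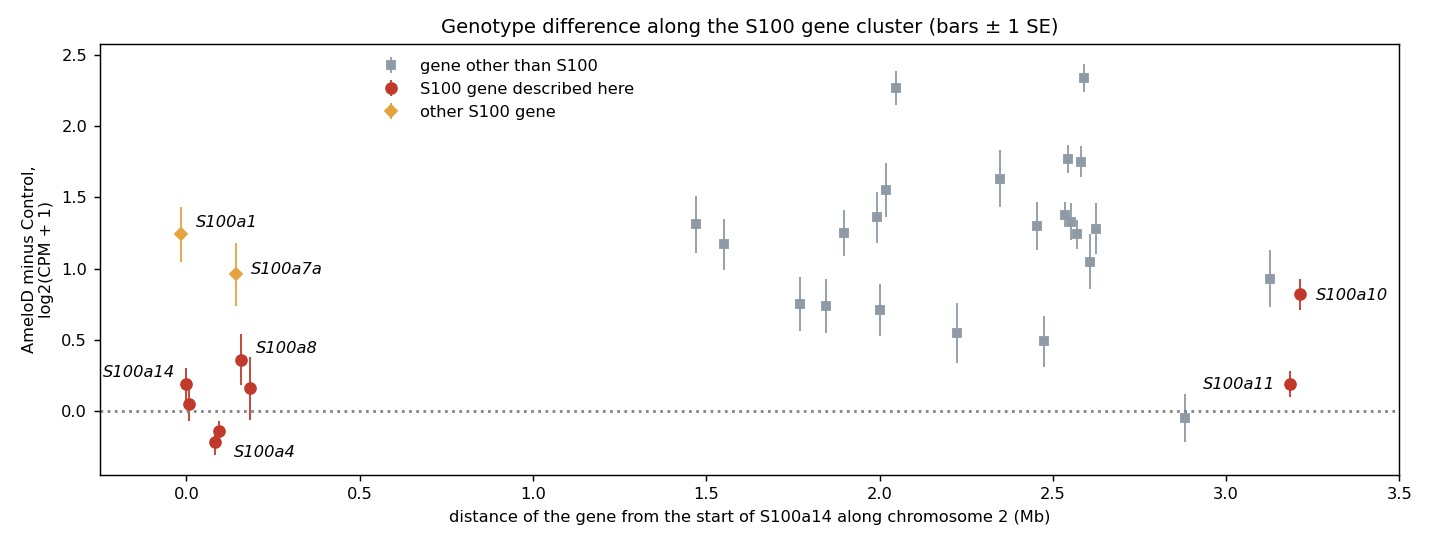
AmeloD minus Control on log2(CPM + 1) for the tested genes of the S100 region, against distance from the start of S100a14 along chromosome 2 in Mb, with bars of ± 1 SE. S100 genes described here are circles, the other S100 genes are diamonds, and the genes between S100a9 and S100a11 are squares, whose median is 1.28. A gene low in Control can be among the tested genes through its AmeloD libraries alone.

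Most of the tested genes that lie between the S100 groups rose in AmeloD. In the 3 Mb between S100a9 and S100a11 there were 74 rows that are not S100 genes, of which 23 were tested. Several of the 23 are Sprr or Lce genes. The sources used here do not say how reads shared by similar genes were counted. In AmeloD 9.07% of all genes tested were called higher and 4.75% lower. Of the 23, 20 rose and 0 fell, with a median log2 difference of 1.28. The same 20 and 0 were counted under each of the 5 other scalings and count models. Among them were Sprr1a, a cornified envelope precursor, at 2.27 ± 0.12 (SE, limma, adjusted p = 3.94e-13), Lce3d, a late cornified envelope gene, at 1.77 ± 0.10 (adjusted p = 1.15e-12) and Loricrin, which encodes the main cornified envelope protein, at 1.17 ± 0.18 (adjusted p = 4.33e-05). These 3 were chosen after their values were seen. With TGF, 0 of the 23 passed by limma, edgeR or DESeq2, and the median was 0.03. Between S100a14 and S100a9 no gene outside the family was tested, and no row lay between S100a11 and S100a10.

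The other S100 genes were few and low. Of 12 listed symbols 8 had a row, and 2 of these passed the filter, S100a1 and S100a7a. Both rose in AmeloD, where 9.07% of all genes tested were called higher. With 2 genes tested, this is not read as a result about the other S100 genes. Neither passed for TGF or plasmid by limma, edgeR or DESeq2. S100a1, known from heart and skeletal muscle, had 2.78, 3.97, 4.23 and 3.12 CPM in the AmeloD libraries, against 0.91, 1.41, 0.542 and 0.814 CPM in the Control libraries. The genotypes did not overlap, and the log2 difference was 1.24 ± 0.19 (SE, limma, adjusted p = 5.12e-05). Among the Control libraries only that at 1.41 CPM reached the 1 CPM of the filter. S100a1 was therefore tested because of its AmeloD libraries, and its rise is partly set by the filter.

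S100a7a, of the psoriasin group of skin S100 proteins, had 7.61, 3.51, 3.56 and 3.97 CPM in the AmeloD libraries, against 2.86, 0.844, 1.63 and 2.32 CPM in the Control libraries. All 4 AmeloD libraries were above all 4 Control libraries, and the difference was 0.96 ± 0.22 (SE, limma, adjusted p = 0.00344). Both genes passed under all 5 other scalings and count models. S100a1 lies just before S100a14 and S100a7a between S100a6 and S100a8. Of the chosen genes, the 6 from S100a14 to S100a9 did not pass for genotype in the main limma test. Among these 6, S100a4 passed under 4 alternatives.

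The remaining rows did not reach the filter. S100a3, a gene of the hair cuticle, had 12 reads with AmeloD and 34 with Control, a ratio of 0.465 per library read with an exact 95% interval of 0.219 to 0.92, and its row overlaps Rnu1-56. S100a5 had 29 and 12 reads, a ratio of 3.18 (1.57 to 6.85). S100b, a marker of glia, had 5 and 4 reads, S100z 0 and 6, and S100g 0 in all libraries. S100a7l2 had 8 reads with AmeloD and 0 with Control in 1 of its 2 rows and 0 in the other. S100vp, which was not listed and is named because of its values, had 4, 2, 11 and 6 reads in the AmeloD libraries and 0 in each Control library. These intervals cover counting error only, and no test was made.

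Of the fused-type genes, which join an S100 domain to long repeats in the cornified layer, 4 of 7 had a row and 1 was tested. Tchhl1, a relative of trichohyalin, rose in AmeloD by 0.93 ± 0.20 (SE, limma, adjusted p = 0.00217), and it is 1 of the 20 between S100a9 and S100a11. Its levels were 1.39 to 3.78 CPM with AmeloD and 0.225 to 0.780 CPM with Control, so the genotypes did not overlap. All Control values were under the 1 CPM of the filter, so Tchhl1 was tested through its AmeloD libraries alone. Its rise and the lack of overlap are therefore partly set by the filter.

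Binding partners and receptors of S100 proteins were listed as 22 genes, of which 15 were tested. In AmeloD 2 rose, 1 fell and 12 did not pass, with a median of 0.15. Over all genes tested, 9.07% were called higher and 4.75% lower, so these few calls are not read as a result about the partners. Anxa1, the annexin bound by S100a11, had 152, 145, 125 and 159.8 CPM in the AmeloD libraries, against 74.5, 64, 51.9 and 58.3 CPM in the Control libraries. The genotypes did not overlap, and Anxa1 rose by 1.22 ± 0.11 (SE, limma, adjusted p = 5.84e-09). Sugt1, a cochaperone that S100a6 binds, rose by 0.49 ± 0.14 (adjusted p = 0.0216), a call that held under 4 of the 5 other scalings and count models. Bsg, or basigin, a receptor of S100a9, fell by 0.45 (SE 0.11, adjusted p = 0.00752).

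Anxa2, the partner of S100a10, did not pass either test. It had 115, 90.9, 67.1 and 75.5 CPM in the AmeloD libraries, against 81.3, 72.4, 63.3 and 70.6 CPM in the Control libraries, and the genotypes overlapped. Its differences were 0.25 ± 0.11 for genotype (SE, limma, adjusted p = 0.135) and 0.36 ± 0.11 for TGF (adjusted p = 0.114). No partner passed for TGF or plasmid by limma, edgeR or DESeq2. Ager, which encodes RAGE, and Tlr4 were not tested, with at most 8 and 3 reads in a library.

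Other cytosolic EF-hand genes were read beside the S100 genes, and 14 rows of 16 listed genes were tested. In AmeloD 2 rose and 2 fell, with a median of 0.11, against 9.07% called higher and 4.75% lower over all genes tested. So few calls are not read as a result about EF-hand genes. Calm3, which encodes calmodulin, rose by 0.67 ± 0.13 (SE, limma, adjusted p = 0.000719). Actn4, an actin crosslinker, rose by 0.52 ± 0.11 (adjusted p = 0.00173), and Myl6, a myosin light chain, fell by 0.25 (SE 0.08, adjusted p = 0.0313). With TGF, where 1.53% of all genes were called higher, Myl6 alone rose, by 0.36 ± 0.08 (SE, limma, adjusted p = 0.00966). That call held under 2 of the 5 other scalings and count models.

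The labelled cell type was read from its markers. Of 10 epithelial symbols 8 had a row, and their summed level was 739 to 845 CPM with AmeloD and 511 to 652 CPM with Control. Epcam, Krt5, Krt17 and Cdh1 rose and Krt8 fell in AmeloD, while Krt18 had 0 reads in all libraries. Endothelial markers summed to 0.593 to 2.05 CPM with AmeloD and 1.01 to 1.95 CPM with Control. Markers of melanocytes, nerve and glia summed to 0.554 to 3.31 CPM with AmeloD and 0.45 to 1.76 CPM with Control. The part of these marker differences in the S100 values was not tested.

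Across the 8 libraries, Pearson r on log2(CPM + 1) between pairs of the 8 genes ran from -0.66, for S100a10 and S100a4, to 0.90, for S100a10 and S100a8. These values are a description, since the libraries share their 3 labels and their depth. S100a4 and S100a6, the 2 with differences below 0 in AmeloD, had r = 0.78. S100a8 and S100a9, whose proteins form a pair, had r = 0.45. S100a10 and S100a11, the 2 that rose with TGF, had r = 0.54.

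The genes most like each S100 gene were searched among the 1497 or 1498 others with a symbol and a mean of at least 10 CPM. For S100a10 they were Zfand6 and Tpm1, which encodes a tropomyosin, both at r = 0.99 over the 8 libraries. For S100a11 they were the row AABR07026805.2 at r = 0.98 and Arf3 at 0.94. S100a4 was most like Dynll1 and Suco, S100a6 most like Denr and Igfbp5, S100a8 most like Serpinh1 and Vamp5, S100a9 most like Pja2 and Anapc4, S100a14 most like Gpx4 and Lynx1, and S100a16 most like Ap2m1 and Tmem223, at r between 0.91 and 0.96. They are the highest values among so many genes over 8 libraries and are given with no test.

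AABR07026805.2, the row most like S100a11, is a stretch of 273 bases on chromosome 17 (488817 to 489089, minus strand, mRatBN7.2) with 3635, 4314, 4223 and 2492 reads in the AmeloD libraries, against 4972, 5625, 3179 and 4077 reads in the Control libraries. In each library this was 6.01% to 6.69% of the reads of S100a11. Its TGF difference was 0.35 ± 0.11 (SE, limma, adjusted p = 0.123). RefSeq lists an S100a11-like gene on chromosome 17, but the tables used do not pair the 2 entries. Whether the reads belong to S100a11 was not tested.

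**Figure D4:**
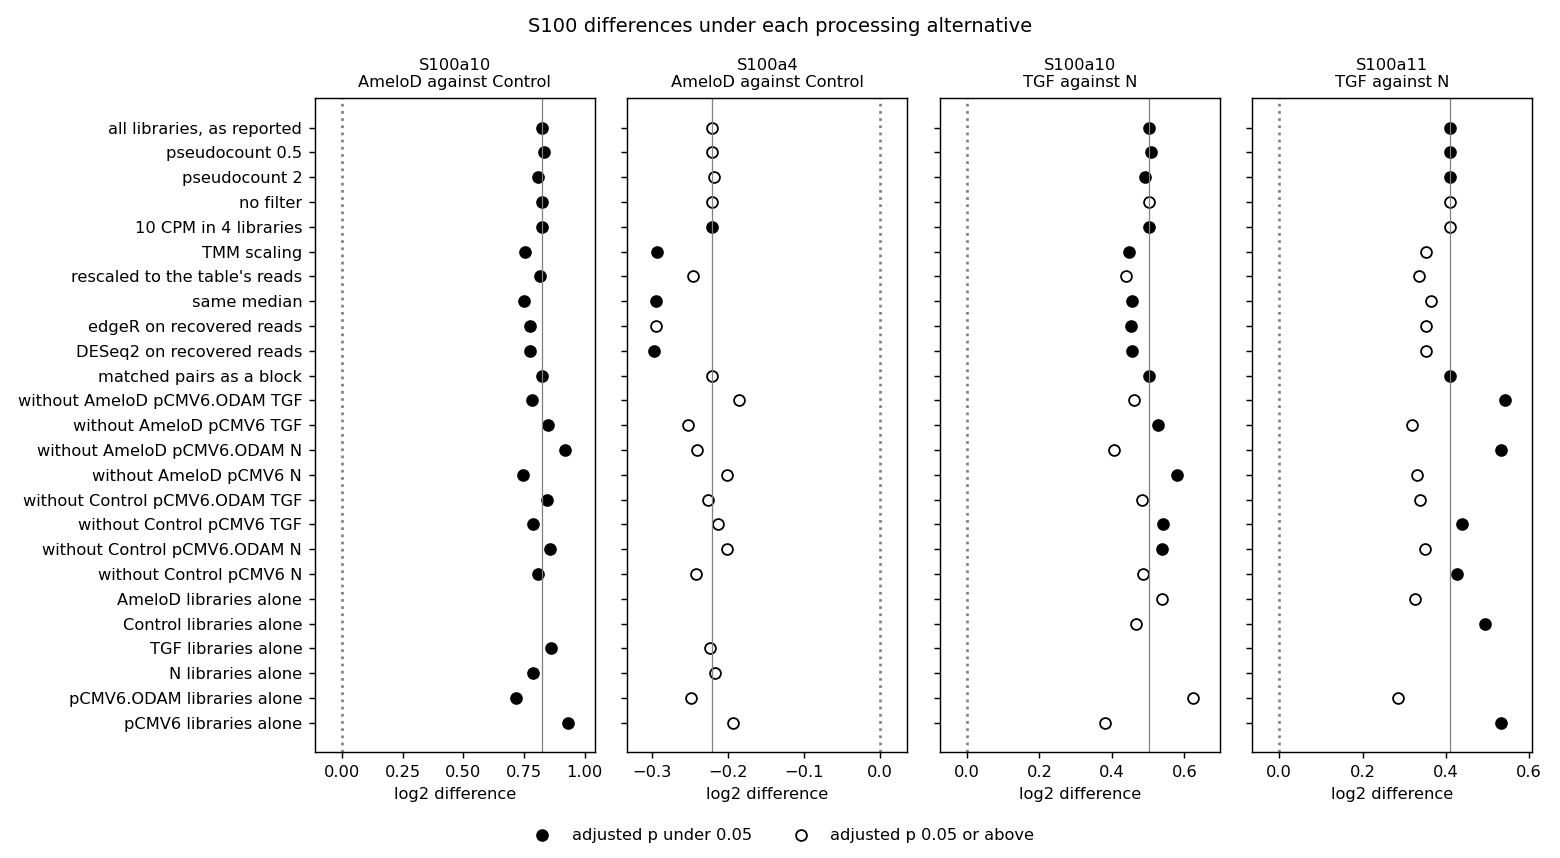
Log2 difference of S100a10 and S100a4 for genotype and of S100a10 and S100a11 for TGF under each processing alternative, a row per alternative; filled points have an adjusted p under 0.05 and the thin line is the value as reported. S100a10 is filled in every row for genotype (0.72 to 0.93), and the TGF columns mix filled and open points at 0.38 to 0.62 for S100a10 and 0.29 to 0.54 for S100a11.

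The genotype difference of S100a10 passed under every alternative that was run. It stayed between 0.72 and 0.93 over 14 alternatives and between 0.75 and 0.92 when each library was left out, with adjusted p of at most 0.00707 and 0.000201. For TGF, S100a10 passed under 8 of 14 alternatives and 4 of 8 left-out libraries, and S100a11 under 5 of 14 and 4 of 8. The count of all genes called for genotype also moved with the scaling, from 621 higher and 325 lower as deposited to 532 and 481 under TMM, 490 and 510 with a common median, 515 and 445 by edgeR and 414 and 363 by DESeq2. For TGF it was 105 higher and 19 lower as deposited, 86 and 30 under TMM, 71 and 32 rescaled to the reads counted in genes and 77 and 32 by DESeq2.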

How the data were processed

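The S100 genes were read from 1 table of CPM per gene and library that the authors deposited, together with gene positions on mRatBN7.2. Per the labels' protocols, total RNA was made into 3′ libraries with the QIAseq UPX kit, aligned with STAR and counted with featureCounts. STAR was version 2.7.10a and featureCounts version 2.0.1, per the submitters' processing notes. The sources used here do not give whether molecular identifiers or strand were used in counting.

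Divided by what a single read is worth in its library, 100% of the deposited CPM values came out whole (tolerance 0.01), which recovers the read counts. Of 30240 rows, 4319 have no symbol. The main test was limma 3.58.1 (R 4.3.3) on log2(CPM + 1), with genotype, plasmid and TGF as additive terms, two-sided, adjusted by Benjamini-Hochberg over 6849 genes with a threshold of 0.05. It leaves 4 residual degrees of freedom, and 3 with an interaction. The limma fit draws each gene's variance toward a trend over all genes tested. Its SE and p-values thus do not rest on the gene's own values alone. Fold changes on the CPM + 1 scale understate low genes. edgeR 4.0.16 and DESeq2 1.42.0 were run on the recovered reads, and the scripts were tested on simulated data.

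Named genes were all members, up to 4 genes past a test per list, and the 2 genes most like each member by Pearson r. Some items that this rule or a list would name are not reported here. Other genes are said to have been chosen after their values were seen. The members and gene lists were chosen with earlier results of these data known. Lists covered other S100 genes, fused-type S100 genes, binding partners, other EF-hand genes, and markers of epithelium, mesenchyme, leukocytes, endothelium, and melanocytes, nerve and glia. A count of 0 allows up to 3 reads, 0.169 to 0.284 CPM per library. Promoter windows are from RefSeq on GRCr8. Nothing in the labels says that libraries came from separate cultures. The p-values thus measure only the spread between these libraries, partly pooled over genes.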

Additional observations from a re-analysis of the deposited data

Results flagged for a closer look

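S100a14 in the Control pCMV6.ODAM TGF library stood apart from the other Control libraries. It was at 58.3 CPM there, against 42.8 to 44.4 CPM in the other 3, a gap larger than Dixon's critical share of the range for 4 values. This was 1 of 16 groups of 4 libraries checked, and chance flags about 1 group in 20. Without that library the genotype difference of S100a14 was 0.29 (limma, adjusted p = 0.076), against 0.19 (adjusted p = 0.269) with it.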

How the results depend on the processing

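For genotype, 1 S100 gene passed as reported and 2 passed with a 10 CPM filter, TMM, a common median or DESeq2, where S100a4 joined S100a10. Leaving out each library gave 1 to 2. For TGF, 2 passed as reported, 1 passed with a 10 CPM filter, TMM, a common median, edgeR, DESeq2, Control libraries alone or pCMV6 libraries alone, and 0 passed without a filter, rescaled to the reads counted in genes, or in AmeloD or pCMV6.ODAM libraries alone. Leaving out each library gave 0 to 2. With a single factor level only 4 libraries enter, and these adjusted p reached 0.490 for S100a10 and 0.714 for S100a11. The cause of the other losses was not tested. Treating matched pairs as a block changed no call of an S100 gene. No paired analysis by replicate number was possible because each combination has 1 library.

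Sign changes were among uncalled values. S100a16 for genotype was -0.023 with TMM, -0.027 with a common median, -0.024 by edgeR, -0.025 by DESeq2, -0.081 in N alone and -0.033 in pCMV6 alone. S100a4 for TGF was -0.017 with TMM, -0.032 rescaled, -0.006 with a common median, -0.018 by edgeR, -0.018 by DESeq2 and -0.039 in pCMV6.ODAM alone. S100a9 for TGF was -0.180 and S100a14 was -0.004 in pCMV6 alone. S100a10 for plasmid was -0.027 with TMM, -0.040 rescaled, -0.015 with a common median, -0.026 by edgeR, -0.023 by DESeq2, -0.095 in AmeloD alone and -0.109 in N alone. In plasmid comparisons S100a8 was -0.018 in AmeloD alone, and S100a9 was -0.300 and S100a14 -0.022 in N alone. Over left-out libraries, S100a16 for genotype ran from -0.034 to 0.088, S100a9 for genotype from -0.091 to 0.40, S100a10 for plasmid from -0.03 to 0.11, S100a10 for genotype by TGF from -0.16 to 0.30 and S100a11 for genotype by TGF from -0.47 to 0.13. Of 572 alternative values over 27 differences, 39 changed sign. S100a8 and S100a9 have no value with a 10 CPM filter. At 12 to 51 reads per library, counting limits both.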
